A study of Homo sapiens with 6 samples.

Results

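The genes described here are the expressed genes of the distal long arm of chromosome 9 in PC-3 cells, a cultured line derived from a bone metastasis of prostate cancer. A gene was a member if its smallest start coordinate on chromosome 9 (GRCh38) was at or above 92210207 and its level averaged at least 8 counts per 1000000 counted reads (CPM) over the 6 libraries, unless it was 1 of 13 named genes or its symbol began with COL or RPL. The start coordinate was chosen on the measured log2 fold changes between shCdGAP and shCon libraries, along gene order, so every value of that contrast is given below as a description and none as a test of the members. Of the 64253 genes in the count tables, 1050 lay beyond the start coordinate, 269 of those reached the minimum level, 15 were set aside by name or symbol start, and 254 remained as members. All 254 were among the 16439 genes that entered the fit. Of the members, 241 were at or above the minimum in both groups, 10 only in shCon cells and 3 only in shCdGAP cells.

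The shCdGAP group was 3 libraries of PC-3 cells carrying a short hairpin RNA against CdGAP, a GTPase-activating protein for Rac1 and Cdc42 encoded by ARHGAP31. The shCon group was 3 libraries of PC-3 cells with a control hairpin. Per the methods, the depleted cells had been infected with a lentivirus, selected with puromycin and then grown from single cells into clones. How control cells were derived after infection was not given in the sources used here, and although the study characterises a numbered shCdGAP clone, it does not say whether that clone was the one sequenced. A difference between a clone and its parental population and a difference made by CdGAP depletion therefore cannot be told apart in these libraries.

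The long arm of chromosome 9 carries many genes that nearly every cell uses, among them genes for transcription, splicing, protein sorting and glycosylation, as well as well-known cancer genes such as NOTCH1, ABL1, TSC1 and SET. Neighbouring genes on a chromosome can share promoters, chromatin domains and copy number, and RNA sequencing reads out each of them separately. A stretch of chromosome can thus be described by the level its genes share and by the genes that depart from it.

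The libraries held 33182796 to 43154039 counted reads. ARHGAP31 (chromosome 3, 119294373 to 119420714) had 26.4, 27.1 and 26.9 CPM in shCdGAP replicates 1, 2 and 3 against 58.9, 60.6 and 58.2 CPM in shCon replicates, a log2 fold change of -1.14 (standard error 0.0409, edgeR quasi-likelihood test, Benjamini-Hochberg adjusted p = 8.75e-08). The epithelial keratin genes KRT8 and KRT18 were at 184 to 299 CPM in every library, and EPCAM was at 203 to 223 CPM in shCdGAP and 81.7 to 84.4 CPM in shCon. KLK3, the gene of prostate-specific antigen, had no read. The leukocyte marker PTPRC had at most 1 read and CD3E none, and the fibroblast marker DCN was at most at 0.115 CPM. Of the other fibroblast markers, LUM was at 1.51 to 2.09 CPM in shCdGAP and 0.182 to 0.262 CPM in shCon, and PDGFRA at 7.20, 18.7 and 7.30 CPM in shCdGAP and 1.56 to 1.85 CPM in shCon, so both were higher in every depleted library. The endothelial marker PECAM1 was at 2.37 to 5.99 CPM with overlapping groups. The part of these differences in the results below was not tested. Among the shCdGAP libraries, replicate 2 stood apart: its chi-square per degree of freedom against replicates 1 and 3 was 27.3 and 33.7, while that between replicates 1 and 3 was 3.22. Several values that rest on it are given with and without it, and the others are given with it only.

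As a group, the distal 9q genes were lower in CdGAP-depleted cells. The median log2 fold change (shCdGAP against shCon) over the 254 members was -0.58, which is 66.9% of the control level, and the members' quartiles were -0.78 and -0.39. A lower estimate was found for 232 members (91.3%). Genes of chromosomes other than 9 and 13 with the same minimum level, 9691 in number, had a median of -0.01, and 51.4% of them had a lower estimate. Chromosome 13 was kept out of that reference because its 166 genes had a median of -1.33. Without shCdGAP replicate 2 the members' median was -0.57.

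Library by library, the members' median was 67.4%, 65.0% and 68.0% of the mean control level in shCdGAP replicates 1, 2 and 3. In the shCon libraries the median log2 ratio to the control mean was 0.0013, 0.0080 and -0.011. The 3 shCdGAP libraries were thus close to each other and apart from all 3 controls. The members together took 1.72% ± 0.0285 of all counted reads (SD, n = 3) in shCdGAP cells and 2.56% ± 0.0133 (SD, n = 3) in shCon cells. In bulk RNA, less RNA from every cell and a larger loss in some of the cells cannot be told apart.

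**Figure D1:**
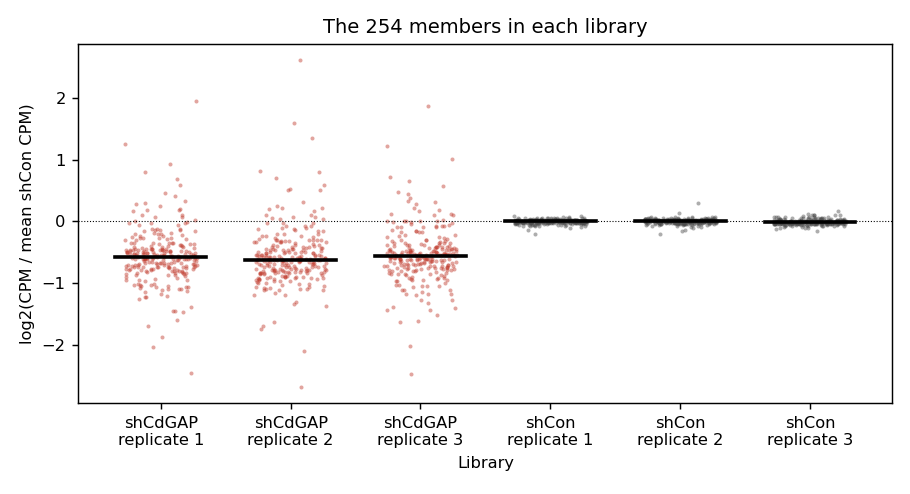
Log2 ratio of each member's CPM to its mean CPM in shCon (vertical axis) in each of the 6 libraries (horizontal axis), 1 point per gene, with a black bar at the median of the 254 members. The bars of the shCdGAP libraries lie at -0.57, -0.62 and -0.56, and those of the shCon libraries at 0 within 0.011.

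By the call rule of an adjusted p under 0.01 in edgeR's quasi-likelihood test, 211 members (83.1%) were lower and 11 (4.33%) higher. Over all 16439 genes the same rule called 22.0% lower and 24.1% higher. With the further limit of a 1 log2 unit change, 27 members were called lower and 3 higher, where the shares over all genes were 4.19% and 8.56%. The groups did not overlap for 220 members with shCdGAP lower and for 17 with shCdGAP higher, and over all genes this was so for 32.7% and 34.4%. Since the stretch was chosen from this contrast, nothing is read from these counts. Without shCdGAP replicate 2, 218 members were called lower and 13 higher, and 30 and 2 with the limit of 1 log2 unit.

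The spread of the members about the shift was like that of other genes. The median absolute deviation (MAD) of the members' log2 fold changes was 0.199, against 0.225 for genes of chromosomes other than 9 and 13, so the members were spread about their own median about as widely as other genes were about zero. Of the members, 152 (59.8%) lay within 0.25 log2 units of the members' median. That band held 12.8% of the other genes, whose own median was -0.01. Being centred on the members' median, it restates the shift and is no measure of evenness against other genes. The median standard error of a member's log2 fold change was 0.0487, and 81 members lay within 2 of their own standard errors of the common shift. The rest lay farther from it than that. Each standard error was derived from the gene's test against no change, so it is a rough yardstick for distance from the shift.

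**Figure D2:**
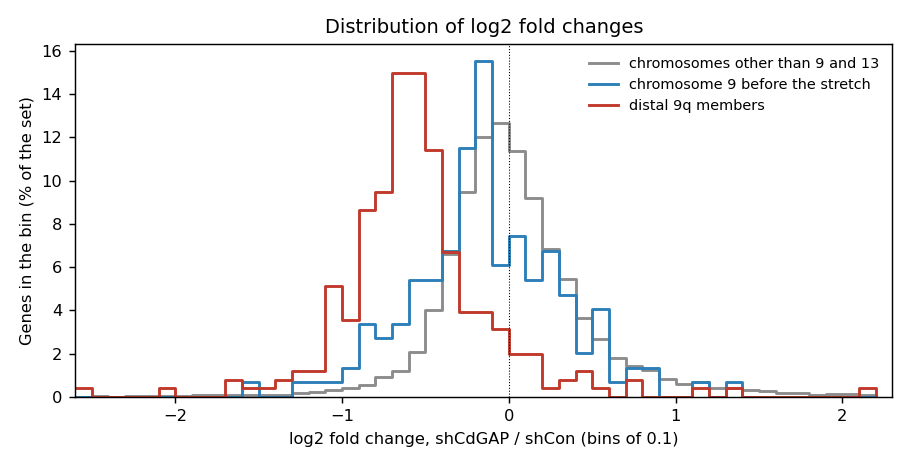
Share of genes (vertical axis, percent of each set) in bins of the log2 fold change of shCdGAP against shCon (horizontal axis, shown from -2.6 to 2.3) for the 254 members (red), the 148 genes of chromosome 9 before the stretch (blue) and the 9691 genes of chromosomes other than 9 and 13 (grey). The red peak sits near -0.58 with a width like that of the grey one, and its right-hand tail crosses 0.

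The shift varied little with position along the arm. In 13 blocks of consecutive members, 20 in each and 14 in the last, the median log2 fold change lay between -0.49 (TMEM268 to LHX6) and -0.78 (MSANTD3 to LPAR1). In the last block, from TPRN to EHMT1 at the end of the arm, it was -0.65. The MAD within a block was smallest at 0.111 from RBM18 to PBX3 and largest at 0.453 from MVB12B to CIZ1, the block that holds SLC25A25-AS1. In 3 blocks, MSANTD3 to LPAR1, ECPAS to ATP6V1G1 and DOLK to ABL1, all 20 members had a lower estimate. Over the 254 members the log2 fold change had a Pearson r of -0.031 and a Spearman rho of -0.014 with their order along the chromosome.

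Before the stretch the picture was different for most of chromosome 9. The 148 genes there had a median of -0.15, with 64.2% lower, and the block medians from KDM4C onward were between -0.26 and 0.02. The block at the tip of the short arm, from ZNG1A to GLDC, had a median of -0.55 with 18 of 20 genes lower, a level like that of the distal 9q blocks. At the start coordinate, the first members were IARS1, the cytosolic isoleucyl-tRNA synthetase (-0.48), and NOL8, a nucleolar protein (-0.68). The genes just before it were SPTLC1, a subunit of serine palmitoyltransferase (-0.55), and NFIL3, a bZIP repressor (-0.15). At the level minimum, AIF1L (8.04 CPM, -0.79) and AJM1 (8.06 CPM, 0.76) were just inside, and TOR2A (7.75 CPM, -0.60) and the pseudogene MFSD14CP (7.57 CPM, -0.71) just outside. Without shCdGAP replicate 2 AIF1L was at -0.95.

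**Figure D3:**
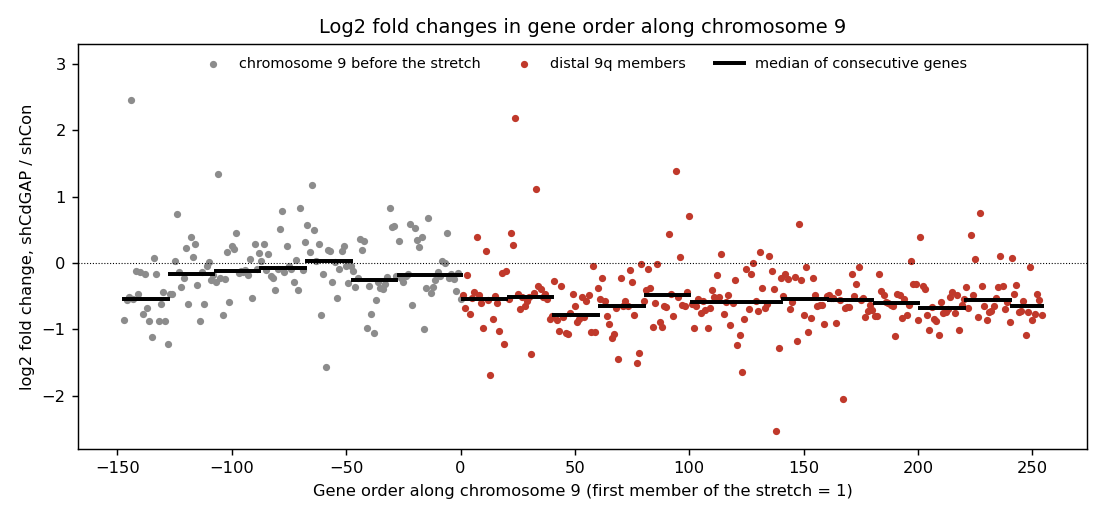
Log2 fold change of shCdGAP against shCon (vertical axis) for expressed chromosome 9 genes in gene order (horizontal axis, first member at 1), with grey points before the stretch and red points for members. Black bars are medians of consecutive genes and stay between -0.49 and -0.78 over the members.

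Gene properties other than position were also set against the shift. Members with higher control levels had somewhat lower log2 fold changes (r = -0.33, rho = -0.29 with log2 CPM in shCon, n = 254), and the points share the control libraries, which enter both axes. With exonic length r was -0.069 and with gene span -0.023. These are descriptions across genes, which are not independent replicates.

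By function, the members were set out in 11 lists, beside a median of 0.01 over all 16439 genes. The call rule gave 83.1% lower and 4.33% higher over all members, and 22.0% and 24.1% over all genes. The called counts of the lists are descriptions, and nothing about a function is read from them. Transcription and RNA processing was the most even list. Its 26 members included RNA polymerase III factors, nuclear export and splicing proteins and ribosome assembly factors, and all 26 were called lower. Their median was -0.67 and their MAD 0.070, and 22 lay within 0.25 of the common shift. GTF3C4, a subunit of the RNA polymerase III factor TFIIIC, had the lowest value, with 141, 139 and 138 CPM in shCdGAP and 301, 301 and 296 CPM in shCon (-1.10). PTBP3, a polypyrimidine tract binding protein that regulates splicing, had 126, 122 and 120 CPM against 236, 234 and 230 CPM (-0.92). The highest value was that of SURF2 (-0.31). No library of the depleted cells reached the control range for these genes.

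Chromatin and DNA repair genes were lower to a similar extent. All 17 were called lower, with a median of -0.74, from PHF2, a histone demethylase family member (-0.98), to SWI5, which acts in homologous recombination (-0.24). SET, a histone chaperone and inhibitor of protein phosphatase 2A, was the most abundant by CPM. It had 681, 671 and 661 CPM in shCdGAP replicates and 1181, 1191 and 1185 CPM in shCon replicates, a log2 fold change of -0.82 (standard error 0.0317). RAD23B, which recognises DNA damage together with XPC, had 320, 302 and 314 CPM against 563, 566 and 557 CPM (-0.85). XPA, the nucleotide excision repair protein in the same pathway, was at -0.52. For both SET and RAD23B the groups were far apart compared with the spread inside each group.

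The list of zinc finger and homeobox factors had the lowest median, -0.88, and its 9 genes were called lower. The list is not complete: ZNF189 (-1.03) and the homeobox gene LHX6, which was higher in depleted cells (0.70), are members outside it. ZBTB34 and ZNF618 were among the 10 lowest members of all. ZBTB34 had 9.79, 9.21 and 9.63 CPM in shCdGAP against 29.9, 28.9 and 30.4 CPM in shCon (-1.64). ZNF618 had 17.4, 15.3 and 17.6 CPM against 47.5, 47.6 and 47.8 CPM (-1.51). ZNF462 (-0.88) and ZNF367 (-1.02) were the most abundant of the list. PBX3, a homeobox partner of HOX proteins, was the nearest to the control level (-0.26).

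Cell division genes followed the common shift. Of 14, 13 were called lower and 1, CENPP, was not, and the median was -0.58. The lowest was CDC14B, a dual-specificity phosphatase (-1.22). TUBB4B, a beta-tubulin and per length the most abundant member of all at 420 RPKM (reads per 1000 bases of exon and 1000000 counted reads) in shCon, had 547, 500 and 546 CPM in shCdGAP and 894, 916 and 849 CPM in shCon (-0.74). PTPA, an activator of protein phosphatase 2A, had 150, 140 and 150 CPM against 215, 213 and 217 CPM (-0.55). SMC2, a condensin subunit, was at -0.82 and the kinase gene NEK6 at -0.41.

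The mitochondrial list was the least even. Of 14 members, 11 were called lower, none higher and 3 neither, with a median of -0.55 and a MAD of 0.441. One subset was near -1: HSDL2 (-1.13), MRPS2 of the small mitochondrial ribosomal subunit (-1.09), NIPSNAP3A (-1.06), the processing peptidase subunit PMPCA (-1.01) and the ribosome recycling factor MRRF (-0.98). MRPS2 had 75.0, 71.7 and 77.7 CPM in shCdGAP and 160, 162 and 157 CPM in shCon. Among those not called were SURF1, an assembly factor of cytochrome c oxidase (0.03), and MRPL41 of the large mitochondrial ribosomal subunit (-0.06). The list is not complete: MRPL50, also of the large subunit (-0.87), is a member outside it. SURF1 had 22.2, 24.4 and 22.6 CPM in shCdGAP and 21.5, 22.2 and 24.1 CPM in shCon, and its groups overlapped.

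The surfeit cluster showed such differences within a short distance, leaving aside RPL7A (-0.999), which lies in it but was removed by the symbol rule. SURF6, a nucleolar protein, was at -0.79 and MED22, a Mediator subunit, at -0.63. Next to them SURF1 was at 0.03, SURF2 at -0.31 and SURF4, a cargo receptor of the endoplasmic reticulum, at -0.32. SURF4 had 282, 304 and 275 CPM in shCdGAP against 359, 365 and 351 CPM in shCon. The 5 genes thus ranged from just below the lower quartile of the members to the control level.

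Secretory pathway genes were shifted less. Of 23 genes of the endoplasmic reticulum, Golgi and glycosylation, 18 were called lower, 1 higher and 4 neither, and the median was -0.49. SEC16A, which organises endoplasmic reticulum exit sites, had 172, 150 and 165 CPM in shCdGAP and 242, 239 and 225 CPM in shCon (-0.54). The lowest was DOLPP1, a dolichyl pyrophosphate phosphatase (-0.91). The higher one was GALNT12, an enzyme that starts mucin-type O-glycosylation, described with the other genes above the control level.

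Receptors and signalling genes had a median of -0.48. Of 19, 16 were called lower, 1 higher and 2 neither, near the shares over all members. RXRA, the retinoid X receptor alpha, was at -1.01, TLR4, a sensor of bacterial lipopolysaccharide, at -0.97 and TRAF2, an adaptor of tumour necrosis factor receptors, at -0.87. ABL1, a tyrosine kinase, was at -0.71. MAPKAP1, the SIN1 subunit of mTOR complex 2, had 136, 135 and 140 CPM against 208, 211 and 204 CPM in shCon (-0.61). The TGF-beta receptor gene TGFBR1 (-0.35), NOTCH1 (-0.36) and the lysophosphatidic acid receptor gene LPAR1 (-0.38) were at the upper end of the called genes. LPAR1 had 100.1, 97.0 and 98.9 CPM in shCdGAP and 129, 128 and 128 CPM in shCon.

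In protein turnover, 13 of 16 members were called lower and 3 were not (median -0.59). URM1, a ubiquitin-like protein that also acts in tRNA thiolation, was the lowest with 45.3, 49.1 and 46.1 CPM against 102, 106 and 109 CPM (-1.18). ECPAS, a proteasome adaptor, had 249, 222 and 243 CPM against 350, 349 and 337 CPM (-0.54). PSMB7, a catalytic subunit of the 20S proteasome, was at -0.52.

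Metabolic enzymes and transporters had a median of -0.57, with 14 of 17 called lower, 1 higher and 2 neither. TXN, thioredoxin, had 175, 182 and 178 CPM in shCdGAP and 366, 367 and 366 CPM in shCon, a log2 fold change of -1.04 (standard error 0.0322). SLC44A1, a choline transporter, had 108, 122 and 104 CPM against 234, 232 and 238 CPM (-1.07). FPGS, which adds glutamates to folates, was at -0.72, and ALAD of haem synthesis at -0.28. The gene called higher was SLC2A6, a hexose transporter (0.39).

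Vesicle traffic and cytoskeleton genes ranged widely, from SNX30 to TMOD1, the highest member of all. Of 25, 20 were called lower, 2 higher and 3 neither, and the median was -0.57. SNX30, a sorting nexin, had 14.3, 15.5 and 13.9 CPM in shCdGAP and 40.0, 38.9 and 40.5 CPM in shCon (-1.45). MVB12B, a subunit of the ESCRT-I sorting complex, was at -1.24. SPTAN1, the non-erythroid alpha-spectrin, had 255, 233 and 235 CPM against 254, 260 and 239 CPM (-0.06), and its groups overlapped.

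Of the 4 secreted and matrix genes, none was called lower and 1 was called higher, and the median was -0.05. TNC, the matrix protein tenascin-C, had 848, 600 and 794 CPM in shCdGAP and 792, 830 and 755 CPM in shCon. Only replicate 2 of the depleted cells lay below the controls, and the log2 fold change was -0.09 (standard error 0.125) with it and 0.04 without it. C5, complement component 5, had 30.3, 32.6 and 29.8 CPM against 23.1, 22.9 and 22.3 CPM (0.44). OLFML2A, an olfactomedin-like matrix protein, had 7.005, 12.2 and 6.69 CPM in shCdGAP and 9.53, 9.88 and 10.02 CPM in shCon. Its log2 fold change was -0.18 (standard error 0.220) with replicate 2 and -0.52 without it, the latter close to the common shift. MEGF9 was at -0.01. Of the 254 members, 177 were in at least 1 of the lists, some in several, and 77 in none.

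**Figure D4:**
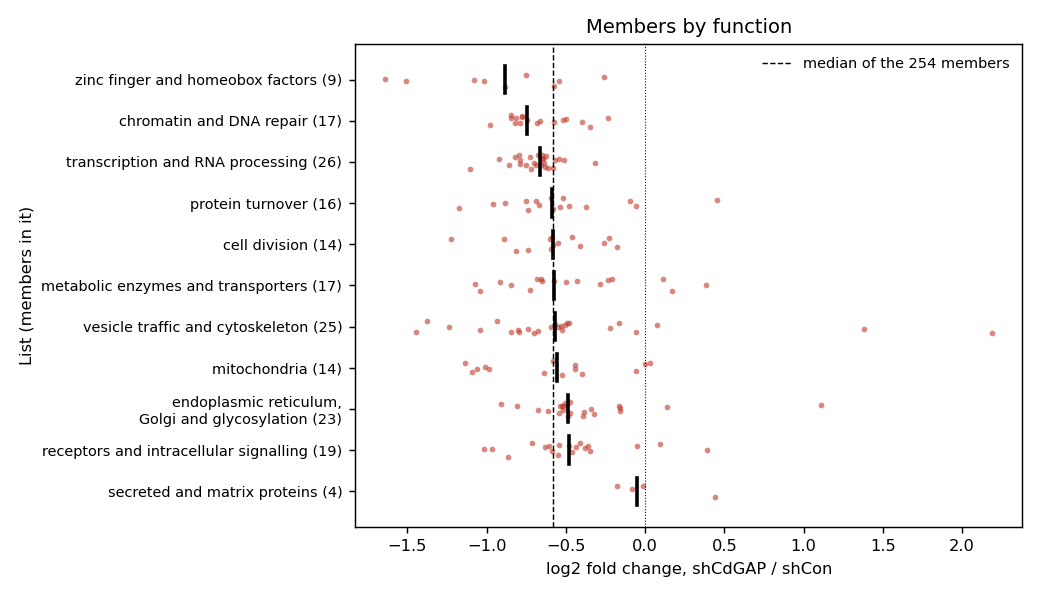
Log2 fold change of shCdGAP against shCon (horizontal axis) of each member in 11 lists by function (vertical axis, number of members in parentheses), with a black bar at each list's median and a dashed line at the median of all 254 members, -0.58. List medians run from -0.88 for zinc finger and homeobox factors to -0.05 for secreted and matrix proteins.

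At the lower end, 27 members were at or below -1, against 1.52% of the genes of other chromosomes. The lowest was SLC25A25-AS1 (chromosome 9, 128108581 to 128118693), an antisense RNA whose end overlaps SLC25A25. It had 3.53, 3.01 and 3.46 CPM in shCdGAP and 18.9, 17.3 and 21.7 CPM in shCon, a log2 fold change of -2.53 (standard error 0.110). SLC25A25-AS1 was among the 10 members that reached 8 CPM in shCon only, as were AKNA and CORO2A below. Their shCdGAP means were 3.33, 7.61 and 7.80 CPM, and their shCon means 19.3, 19.6 and 20.3 CPM. These genes thus passed the minimum level only through the group where they were higher. SLC25A25 itself, a mitochondrial carrier for ATP and phosphate on the opposite strand, was at -0.40. The file headers name strand-specific counting.

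IER5L (129175552 to 129178262, minus strand), an immediate early response family gene, had 20.2, 19.3 and 20.5 CPM against 84.4, 82.8 and 80.0 CPM in shCon (-2.05, standard error 0.0445). AOPEP (94726701 to 95087218), an aminopeptidase gene, had 23.6, 22.9 and 25.1 CPM against 77.2, 75.3 and 77.4 CPM (-1.68). AKNA, a centrosomal and AT-hook protein, was at -1.36. In all of these the shCdGAP libraries were below all shCon libraries and close to each other. CORO2A, a coronin of the actin cytoskeleton, was less even, with 5.57, 10.3 and 7.54 CPM in shCdGAP and 19.9, 19.9 and 21.1 CPM in shCon. Its log2 fold change was -1.37 (standard error 0.190) with replicate 2 and -1.65 without it. BBLN, which encodes bublin coiled-coil protein, also had its highest shCdGAP value in replicate 2, 69.3 CPM against 51.5 and 53.8 CPM, with 139, 143 and 141 CPM in shCon (-1.27, and -1.43 without replicate 2).

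At the upper end, 22 members (8.66%) were at or above 0, against 48.6% of the genes of other chromosomes, and 3 were at least 1 log2 unit higher. TMOD1 (97501180 to 97601748), tropomodulin 1, which caps the pointed ends of actin filaments, had 17.6, 27.7 and 16.5 CPM in shCdGAP and 4.70, 4.31 and 4.57 CPM in shCon. Its log2 fold change was 2.19 (standard error 0.213), and 1.91 without replicate 2. Its neighbours on either side in gene order were TDRD7 at 0.26 and TSTD2 at -0.47.

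GSN (121207794 to 121332843), gelsolin, which severs and caps actin filaments, had 67.7, 85.7 and 66.2 CPM against 25.6, 28.4 and 30.8 CPM (1.38, and 1.24 without replicate 2). The next gene, STOM, was at -0.51. GALNT12 (98807699 to 98850081) had 24.2, 32.3 and 25.8 CPM against 12.5, 12.9 and 12.7 CPM (1.11, and 0.96 without replicate 2). In these 3 genes replicate 2 was the highest library and every shCdGAP library was above every shCon library.

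The other members of the upper end had smaller differences. CERCAM, a cell adhesion protein gene, had 39.5, 39.4 and 39.0 CPM in shCdGAP and 26.2, 26.4 and 25.8 CPM in shCon (0.59). LHX6, a LIM homeobox factor, had 11.0, 11.0 and 11.1 CPM against 6.91, 6.75 and 6.66 CPM (0.70). AJM1, an apical junction component, had 10.4, 10.4 and 9.46 CPM against 5.60, 5.97 and 6.45 CPM (0.76). LHX6, AJM1 and TMOD1 were the 3 members that reached 8 CPM in the shCdGAP group only. NINJ1, which acts in plasma membrane rupture, was at 0.39 and DIPK1B at 0.43 (0.31 and 0.37 without replicate 2). CTSV, the protease cathepsin V, had 12.3, 17.7 and 10.7 CPM against 10.4, 9.69 and 9.81 CPM, so that its estimate was 0.45 with replicate 2 and 0.21 without it.

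**Figure D5:**
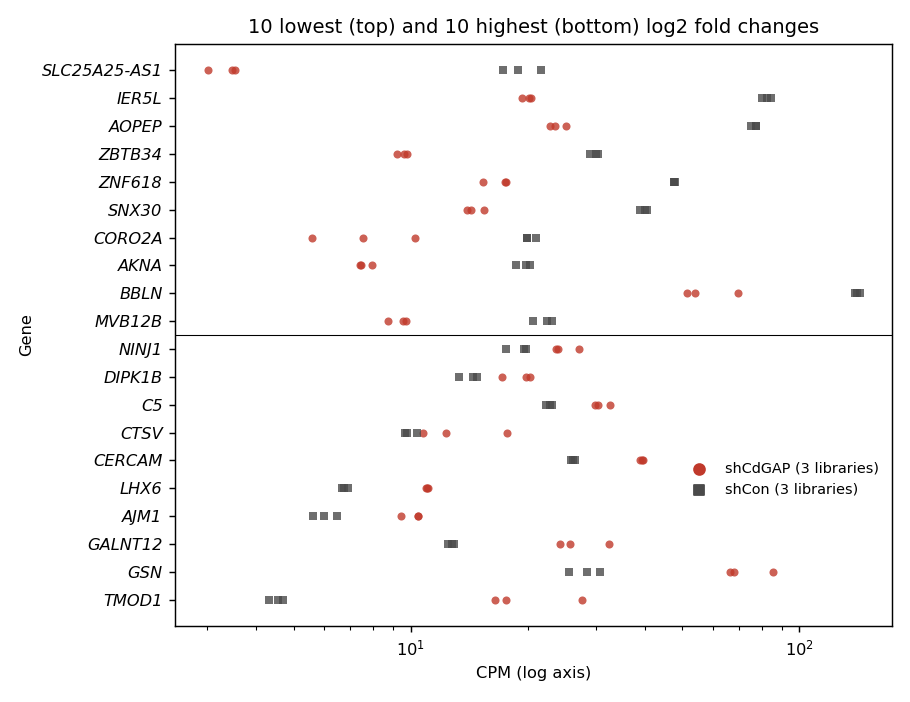
CPM (horizontal log axis) in each of the 6 libraries for the 10 members with the lowest and the 10 with the highest log2 fold changes (vertical axis), with red circles for shCdGAP and dark squares for shCon. The circles lie left of all squares in the upper 10 rows and right of all squares in the lower 10, with TMOD1 at 16.5 to 27.7 against 4.31 to 4.70 CPM.

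Replicate spread was judged by the coefficient of variation (CV) of CPM in a group. Its median over members was 4.80% in shCdGAP, 2.40% there without replicate 2, and 2.22% in shCon. Over genes of other chromosomes it was 5.26%, 2.16% and 2.48%. The values without replicate 2 come from 2 libraries and are not on the same footing as those from 3. A CV above 20% in shCdGAP was found for 4 members, CTSV, TMOD1, CORO2A and OLFML2A, and replicate 2 was the highest library in each.

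The promoters of members at the ends of the range are shown to compare their base composition. Each is the 250 bases before the RefSeq transcription start (GRCh38.p14), 5′ to 3′ on the strand of the gene, in lower case with GGGCGG (on either strand, the core of the GC box bound by Sp1 family factors) or TATAAA (the TATA box) in capitals. The higher genes TMOD1, at chr9:97500930-97501179, plus strand, and GALNT12, at chr9:98807420-98807669, plus strand, were:
TMOD1: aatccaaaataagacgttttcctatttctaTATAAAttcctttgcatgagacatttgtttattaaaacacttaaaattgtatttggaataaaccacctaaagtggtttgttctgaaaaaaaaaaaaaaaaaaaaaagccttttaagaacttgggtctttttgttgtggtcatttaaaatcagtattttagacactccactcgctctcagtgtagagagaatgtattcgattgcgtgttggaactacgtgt
GALNT12: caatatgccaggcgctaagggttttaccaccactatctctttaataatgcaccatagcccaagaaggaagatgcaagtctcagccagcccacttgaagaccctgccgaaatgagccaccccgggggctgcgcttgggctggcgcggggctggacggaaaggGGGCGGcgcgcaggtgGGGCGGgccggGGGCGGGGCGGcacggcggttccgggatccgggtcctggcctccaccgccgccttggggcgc

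The lower genes IER5L, at chr9:129178262-129178511, minus strand, and AOPEP, at chr9:94726449-94726698, plus strand, were:
IER5L: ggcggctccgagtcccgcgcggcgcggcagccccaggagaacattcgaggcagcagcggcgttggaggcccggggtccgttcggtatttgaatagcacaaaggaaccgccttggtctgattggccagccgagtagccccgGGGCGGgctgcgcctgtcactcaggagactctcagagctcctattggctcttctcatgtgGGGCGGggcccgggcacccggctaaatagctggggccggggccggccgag
AOPEP: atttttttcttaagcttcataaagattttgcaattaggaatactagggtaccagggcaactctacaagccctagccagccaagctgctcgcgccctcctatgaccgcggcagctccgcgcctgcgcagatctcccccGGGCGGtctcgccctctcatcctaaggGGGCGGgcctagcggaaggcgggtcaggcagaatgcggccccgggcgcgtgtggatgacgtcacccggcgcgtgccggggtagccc

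Among the windows shown, that of TMOD1 stood apart with a GC content of 30.4%, 5 CpG dinucleotides, 1 TATAAA and no GGGCGG. Its TATAAA lies near the upstream end of the window, far from the start. GALNT12, the other gene with a higher level, had 67.2% GC, 21 CpG and 3 GGGCGG, counted here and below without overlap (its last stretch of capitals holds an overlapping match). Of the lower genes, IER5L had 68.4% GC, 24 CpG and 2 GGGCGG, and AOPEP 62.8%, 22 and 2. The window of SLC25A25-AS1, the lowest member, is not shown. It had 61.6% GC, 1 CpG and no GGGCGG or TATAAA. The GC-rich windows thus belonged to genes at both ends.

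Over all members the promoter windows were typical of expressed genes. RefSeq held a promoter for 216 of the 254, with a median GC content of 68.8% against 65.2% for 7859 genes of chromosomes other than 9 and 13 with the same minimum level and 58.0% for all 35116 promoters of the table. GGGCGG, on either strand, was in 75.5% of the members' windows, 69.5% of those of the other expressed genes and 42.6% of all. TATAAA was in 4.17%, 4.75% and 10.7%. The AP-1 motif TGACTCA was in 2.78%, 2.27% and 4.20% of the same sets, and the E-box CACGTG in 12.0%, 9.25% and 6.35%.

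By position in the range, GGGCGG was in 13 of 17 windows of members at or above 0, in 21 of 23 of those at or below -1, and in 70.3% of the 128 near the common shift. TATAAA was in 2 of 17, 2 of 23 and 3.12%. A match is a description of letters and names no bound factor.

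Genes that share 1 short stretch between their starts were compared as pairs. Members formed 9 divergent pairs, in which a minus-strand gene and the next member, on the plus strand, did not overlap and had at most 1000 bases between them. In all 9 both genes had a lower estimate. Pairs with overlapping ends were not counted, among them SURF1 (0.03) with SURF2 (-0.31) and NOL8 (-0.68) with CENPP (-0.18). The median absolute difference of log2 fold changes within a pair was 0.229, and 5 of 9 pairs differed by at most 0.25. Over the 253 pairs of members next to each other in gene order the median absolute difference was 0.318, and 102 were within 0.25. The divergent pairs are among those 253.

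Among the counted pairs, which leave out those with overlapping ends, FKBP15 and SLC31A1 differed most. SLC31A1, a copper importer, had 82.8, 83.8 and 75.1 CPM in shCdGAP and 125, 128 and 127 CPM in shCon (-0.66). FKBP15, an FK506-binding protein family member on endosomes, had 52.2, 46.3 and 51.7 CPM against 58.8, 59.6 and 56.7 CPM (-0.22), and with the replicate number as a block it was still at -0.22 but was no longer called. The difference within the pair was 0.43 (standard error 0.0713). That standard error treats the 2 estimates as independent, although both come from the same libraries. Without shCdGAP replicate 2, FKBP15 was at -0.18 and SLC31A1 at -0.69. In RefSeq 266 bases lie between the starts, and the 250 bases upstream of SLC31A1, at chr9:113221294-113221543, plus strand, which make up nearly all of what lies between them, had 68.0% GC and 3 GGGCGG, in capitals:
SLC31A1: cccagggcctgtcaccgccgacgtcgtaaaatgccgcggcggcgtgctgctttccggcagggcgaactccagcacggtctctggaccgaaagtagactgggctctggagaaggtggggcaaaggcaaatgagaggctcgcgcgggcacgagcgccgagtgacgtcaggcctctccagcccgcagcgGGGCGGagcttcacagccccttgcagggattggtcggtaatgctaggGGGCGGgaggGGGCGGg

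Another abundant pair was closer. NCBP1, a subunit of the nuclear cap-binding complex, had 100.3, 89.0 and 96.8 CPM in shCdGAP and 153, 158 and 153 CPM in shCon (-0.70), while TSTD2, which starts 50 bases away, had 28.6, 25.7 and 28.9 CPM against 39.5, 37.4 and 38.5 CPM (-0.47). In this pair, every shCdGAP library was below every shCon library for both genes.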

How the data were processed

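RNA from 3 shCdGAP and 3 shCon samples was sequenced, and the authors deposited unnormalized counts, with 1 table of reads per gene for each sample. Per the file headers, featureCounts 1.6.0 counted both-mapped, non-chimeric pairs by strand on Ensembl release 77. The submitters' processing notes name featureCounts 1.4.6, STAR 2.5.1b and GRCh38, and the methods a single-read kit. Of 64253 genes, 40995 matched a symbol (252 of 254 members). No value column of the tables was left unused (0).

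These were fitted with edgeR 4.0.16 in R 4.3.3, after TMM scaling and the filterByExpr filter, by its robust quasi-likelihood test with Benjamini-Hochberg adjustment over 16439 genes. CPM used TMM-scaled library sizes, with factors of 0.987 to 1.01. DESeq2 1.42.0, which the methods use in another version, was an alternative, as were other scalings, filters and minimum levels, a block on replicate number, and leaving out single libraries. Figures and tables were made with Python 3.11.15. The script was tested on simulated data.

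The members and the gene lists were chosen with earlier results of these data known. Named genes were the 10 lowest and 10 highest members, the 2 most abundant of each list, the 3 most abundant divergent pairs and the genes beside both limits. Some genes under this rule are not reported here. Others, such as list extremes and the surfeit genes, were chosen after their values were seen.

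Same-numbered libraries deviated together (correlations 0.123, 0.119 and 0.119 over 10207 genes, each shCdGAP library closest to its own number). The replicate numbers may thus pair the samples, but the correlations are small and no label gives a pairing. The main fit did not use it, and the replicate block was an alternative. The methods name 3 independent samples per group without saying what separated them, so p-values measure the spread between these samples only. Every pair of same-group libraries differed by more than counting noise (chi-square per degree of freedom of 2.59 or more). A single gene could not be tested by permutation of 3 against 3 libraries, since 0.1 is the smallest two-sided p it allows.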

Additional observations from a re-analysis of the deposited data

How the results depend on the processing

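The members' median log2 fold change lay between -0.60 and -0.56 under other scalings, filters and the replicate block, and between -0.60 and -0.57 with each library left out. With the replicate block 209 members were called lower in place of 211, and the median stayed at -0.58. Members called lower ranged from 202 to 218 and called higher from 8 to 13 with each library left out. The minimum level moved more. At 30 CPM, 187 members had a median of -0.62 (also -0.62 relative to all genes) and a MAD of 0.164, with 2 called higher, 1 of them by over 1 log2 unit. At 2 CPM, 302 members had a MAD of 0.218 and 6 called higher by over 1 log2 unit. Of the 48 named members' values, only that of TNC changed direction, ranging from -0.20 to 0.041 with each library left out. FKBP15, NINJ1 and DIPK1B lost their call in some alternatives and CTSV was called without a filter. ARHGAP31 stayed between -1.17 and -1.12. Scaling moved the median of all genes to at most 0.03. Depth was not a limit for members, whose levels average at least 8 CPM.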
